A study of Mus musculus with 14 samples.

Results

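The 30 genes described here encode subunits of voltage-gated potassium (Kv) channels and were chosen by name from the 55359 gene IDs counted in each library. Earlier results of these data were known when the list was chosen, so comparisons of its members with all tested genes are descriptions. The members are 6 Kv1 genes (Kcna1 to Kcna6), 1 Kv2 gene (Kcnb2), 3 Kv3 genes (Kcnc1, Kcnc2 and Kcnc4) and 3 Kv4 genes (Kcnd1 to Kcnd3). A further 2 are Kv7 genes (Kcnq3 and Kcnq5) and 5 are ether-à-go-go type genes (Kcnh1, Kcnh2, Kcnh3, Kcnh5 and Kcnh7). The auxiliary and modifying subunits are 3 Kv beta genes (Kcnab1 to Kcnab3), 4 Kv channel interacting proteins (Kcnip1 to Kcnip4) and 3 silent subunits (Kcng1, Kcns2 and Kcnv1). All 30 were found by Ensembl ID and all 30 passed the filter on low counts that left 20330 genes for testing.

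The superior colliculus was divided into a superficial and a deep part and its poly-A RNA sequenced. It is a midbrain centre that receives visual input in its upper layers and input of other senses below. The mice were ICR (CD-1) pups at postnatal day 6 that had been injected in the eye at postnatal day 0 to 1. Cbx pups received 0.3 to 0.5 µL of 50 mM carbenoxolone (cbx), a blocker of gap junctions used by the study to remove spontaneous retinal waves, and control pups received saline. The groups were cbx superficial (4 libraries), saline superficial (3), cbx deep (4) and saline deep (3), each library holding the tissue of 3 pooled brains. The p-values therefore rest on the variation of pools and not of single pups.

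Kv channels open when the membrane depolarises and let potassium leave the cell, which ends the action potential and sets how fast a neuron can fire again. Pore-forming subunits assemble as tetramers within a subfamily, while silent subunits form no channel alone and alter those of the Kv2 subfamily. Kv beta subunits bind Kv1 channels, and Kv channel interacting proteins are calcium-binding partners of Kv4 channels. The expression of many of these genes changes as neurons mature after birth.

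Total counts ran from 32004952 to 48776827 per library. The labels of the layers were checked with marker genes. Of 4 superficial colliculus markers, Rorb was higher in superficial libraries (log2 difference 1.79 after cbx and 1.7 after saline), as was Grp, while Npnt and Ntsr1 were lower, and the deep marker Cbln2 was lower in superficial libraries (-1.5 after cbx and -2.04 after saline). The library of cbx superficial replicate 1 stood apart: its counts differed from those of the other 3 by a chi-square per gene of 17.5 to 45.7, against 7.07 to 21.1 for all other pairs within groups, and it held the lowest value of its group for 14 of the 30 members. Pools also differed in sex-linked genes. Xist was at 1.94 CPM (counts scaled to library size with TMM factors) in saline superficial replicate 1. It was at 0.572 CPM in saline deep replicate 1. Ddx3y had 0 counts in replicate 4 of cbx superficial and of cbx deep. These are saline pool 1 and cbx pool 4, left out together in a fit below. Across both layers Ddx3y was at 0 to 38.6 CPM after cbx and 30.5 to 70.8 CPM after saline. Xist was at 262 to 1130 CPM after cbx and 0.572 to 526 CPM after saline. Within each layer the groups overlapped, and neither gene was called between treatments. The part of sex in the treatment differences was not tested.

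Superficial libraries had lower levels of most members than deep libraries after cbx, and of 14 of 30 after saline. After cbx, 22 of 30 were lower and 1 was higher in superficial libraries, where 14.1% of all tested genes were lower, 18.1% higher and 32.2% either. After saline, 14 were lower and 2 higher, where 8.73% of all tested genes were lower, 9.67% higher and 18.4% either. Values of the layers did not overlap, with superficial libraries lower or higher, for 20 and 1 members after cbx (13% and 16.7% of all tested genes) and for 16 and 4 after saline (16.5% and 20.2%). The median log2 difference of the members, superficial minus deep, was -0.42 after cbx and -0.27 after saline, beside 0.018 and 0.042 for all genes tested. These contrasts with all genes are descriptions, since the list was chosen with earlier results of these data known. In total 14 members were lower after both treatments, 8 were lower after cbx and not past the threshold after saline, 1 (Kcnab1) was higher after both, 1 (Kcnq5) was higher after saline and not past the threshold after cbx, and 6 passed in neither. The threshold was an adjusted p of 0.05 from edgeR's quasi-likelihood test over all tested genes. Without cbx superficial replicate 1 the counts after cbx were 21 lower and 1 higher, with a median of -0.36.

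**Figure D1:**
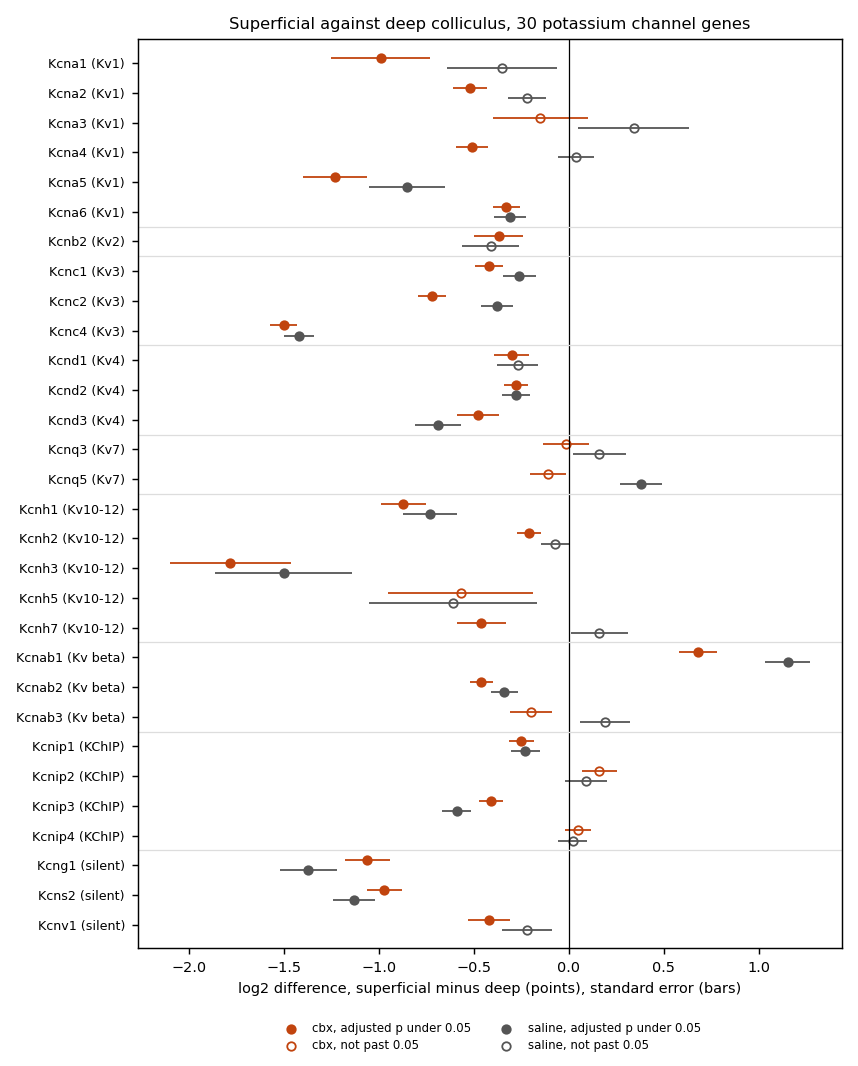
Log2 difference of superficial minus deep libraries (x axis) for the 30 members by subfamily (rows), in cbx libraries (red) and saline libraries (grey). Points are fitted differences, bars are 1 standard error, and filled points passed an adjusted p of 0.05. Most points lie left of 0, Kcnh3 and Kcnc4 farthest, and Kcnab1 lies to the right at 0.68 and 1.15.

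In bulk tissue, fewer cells of a type and less RNA per cell cannot be told apart. The layers also differed in other cell types. Of 10 meningeal fibroblast markers 10 were higher in superficial libraries after each treatment, with a summed level of 656 to 1270 CPM in cbx superficial, 500 to 740 CPM in saline superficial, 40.5 to 54.9 CPM in cbx deep and 62.3 to 71.2 CPM in saline deep libraries. All 8 cell cycle genes and 5 of 6 endothelial genes were higher in superficial libraries after each treatment. Of 10 pan-neuronal genes 1 was higher and 5 lower after cbx (median -0.23), and 1 was higher and 1 lower after saline (median -0.21). Their summed level was 6080 to 6710 CPM in cbx superficial, 6360 to 6930 CPM in saline superficial, 6790 to 7540 CPM in cbx deep and 7260 to 7450 CPM in saline deep libraries. The summed level of the vesicular glutamate transporters Slc17a6 and Slc17a7 was 193 to 212 CPM in cbx superficial, 189 to 230 CPM in saline superficial, 398 to 449 CPM in cbx deep and 379 to 411 CPM in saline deep libraries. That of 3 inhibitory neuron markers was 724 to 813 CPM in cbx superficial, 835 to 863 CPM in saline superficial, 514 to 604 CPM in cbx deep and 538 to 586 CPM in saline deep libraries. Of 10 microglia markers 1 was higher and 5 lower in superficial libraries after cbx, and 0 higher and 9 lower after saline, with sums of 323 to 339 CPM in cbx superficial, 247 to 268 CPM in saline superficial, 362 to 408 CPM in cbx deep and 400 to 436 CPM in saline deep libraries. Of 8 astrocyte markers 4 were higher and 1 lower in superficial libraries after cbx, and 2 higher and 2 lower after saline. Their sums were 2390 to 2790 CPM in cbx superficial, 2440 to 2960 CPM in saline superficial, 1370 to 1640 CPM in cbx deep and 1660 to 1970 CPM in saline deep libraries. Of 9 tested of 10 oligodendrocyte markers 1 was higher and 4 lower after cbx, and 2 higher and 2 lower after saline, with sums of 453 to 585 CPM in cbx superficial, 432 to 678 CPM in saline superficial, 638 to 803 CPM in cbx deep and 639 to 757 CPM in saline deep libraries. Of the markers in the lists above, Opalin (oligodendrocytes) was at 0 in all saline superficial libraries, and no other was at 0 in a whole group. Of 3 tested of 5 cerebellum markers 2 were higher in superficial libraries after each treatment. Their sums were 126 to 149 CPM in cbx superficial and 121 to 144 CPM in saline superficial libraries. In cbx deep libraries the sums were 42.7 to 51.9 CPM, and in saline deep libraries 47.3 to 55.7 CPM. In each group 2 of the 5 had no counts. The part of all these markers in the layer differences was not tested.

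The Kv3 genes encode channels with a high threshold and fast closing that let neurons fire at high rates, and all 3 were lower in superficial libraries after both treatments. The stretches of DNA before the starts of these 3 genes and of Kcnab1, which went the other way, are shown here so that the genes with the same and the opposite layer difference can be set side by side. Each is the 250 bases upstream of the first start listed by RefSeq on build GRCm38.p6, written 5′ to 3′ on the gene's strand, with capitals marking the GC box GGGCGG on either strand (read as CCGCCC on the other). They lie at chr7:46396218-46396467 (plus strand, Kcnc1), chr10:112269767-112270016 (plus strand, Kcnc2), chr3:107458899-107459148 (minus strand, Kcnc4) and chr3:64948962-64949211 (plus strand, Kcnab1). RefSeq lists 4 starts for Kcnc2 and 3 for Kcnab1, and gene counts do not show which was used.
Kcnc1: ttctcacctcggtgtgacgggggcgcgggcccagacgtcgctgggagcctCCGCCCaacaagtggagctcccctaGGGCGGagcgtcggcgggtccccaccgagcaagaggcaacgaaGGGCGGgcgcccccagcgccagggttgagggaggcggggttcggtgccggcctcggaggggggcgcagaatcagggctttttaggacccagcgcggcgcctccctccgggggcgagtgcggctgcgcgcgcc
Kcnc2: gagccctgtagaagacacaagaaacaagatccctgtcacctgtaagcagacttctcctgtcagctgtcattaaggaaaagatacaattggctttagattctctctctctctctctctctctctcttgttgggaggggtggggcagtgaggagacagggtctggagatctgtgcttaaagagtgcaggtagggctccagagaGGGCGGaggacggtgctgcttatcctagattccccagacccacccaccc
Kcnc4: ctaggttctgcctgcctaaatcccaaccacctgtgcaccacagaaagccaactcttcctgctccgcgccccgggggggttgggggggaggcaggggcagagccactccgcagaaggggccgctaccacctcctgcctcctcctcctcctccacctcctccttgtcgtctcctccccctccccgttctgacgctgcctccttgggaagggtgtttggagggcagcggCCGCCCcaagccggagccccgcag
Kcnab1: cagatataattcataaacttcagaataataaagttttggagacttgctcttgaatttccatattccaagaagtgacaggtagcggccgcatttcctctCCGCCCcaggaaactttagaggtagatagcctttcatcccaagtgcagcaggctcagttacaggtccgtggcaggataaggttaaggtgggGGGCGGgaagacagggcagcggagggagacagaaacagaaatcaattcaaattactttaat
All 4 stretches hold a GC box, with 3 in Kcnc1, 1 in Kcnc2, 1 in Kcnc4 and 2 in Kcnab1, so this motif is shared by genes of both directions. Of the 21 members with a listed start, 13 (61.9%) hold a GC box in this window, against 32.9% of the 27025 genes in the table, coding or not. Their median GC content was 62.4% and their median number of CG pairs 14, against 52% and 6 for all genes. No member held the cAMP response element TGACGTCA (1.62% of all genes), the E-box CACGTG (6.05%) or TATAAA (13%), searched on both strands. No entry was used for Kcna1, Kcnab3, Kcnb2, Kcnd1, Kcnq3, Kcnh3, Kcng1, Kcns2 and Kcnv1.

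Kcnc4, whose channels inactivate quickly, had one of the widest layer differences of the family. Kcnc4 had 48.5, 48.1, 45.1 and 39.4 CPM in cbx superficial libraries, 44.3, 44.7 and 45 CPM in saline superficial libraries, 141, 124, 128 and 117 CPM in cbx deep libraries and 118, 120 and 122 CPM in saline deep libraries. Every superficial library was below every deep library, and the spread within groups was small beside the gap. The log2 difference was -1.5 ± 0.07 (SE) after cbx (adjusted p = 7.32e-12) and -1.42 ± 0.081 after saline (adjusted p = 2.51e-10), a superficial level 0.355 and 0.373 times the deep one. Kcnc1, the Kv3 gene typical of fast-firing brainstem and cerebellar neurons, differed less. Kcnc1 had 124, 133, 160 and 147 CPM in cbx superficial libraries, 185, 162 and 159 CPM in saline superficial libraries, 186, 192, 199 and 175 CPM in cbx deep libraries and 204, 202 and 201 CPM in saline deep libraries. Its layers did not overlap within either treatment, at -0.42 ± 0.074 after cbx and -0.26 ± 0.085 after saline, although the saline call was lost with any saline library other than superficial replicate 1 left out (adjusted p up to 0.147). Kcnc2 had 20, 23.2, 20.9 and 20.8 CPM in cbx superficial libraries, 20.7, 20.2 and 19.6 CPM in saline superficial libraries, 33.5, 39, 33.1 and 34.2 CPM in cbx deep libraries and 26.6, 26.1 and 26 CPM in saline deep libraries. Kcnc2, known from fast-spiking interneurons, was thus lowest in both superficial groups and highest in cbx deep libraries, with log2 differences of -0.72 ± 0.072 after cbx and -0.38 ± 0.084 after saline.

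Within the Kv3 subfamily Kcnc4 took a larger share in deep than in superficial libraries. Set per length of the annotated exons (RPKM, the CPM divided by kilobases of exon), Kcnc4 made up 40.9% ± 4 of the summed Kv3 level in cbx superficial (SD, n = 4) and 37.1% ± 1.87 in saline superficial libraries (n = 3). It made up 58.3% ± 1.95 in cbx deep (n = 4) and 56.6% ± 0.639 in saline deep libraries (n = 3). The share of Kcnc1 was 49.2% ± 4.23 in cbx superficial and 54.3% ± 2.04 in saline superficial libraries, and 33.4% ± 1.46 in cbx deep and 37.1% ± 0.527 in saline deep libraries. Kcnc4 was above Kcnc1 in every deep library, and in superficial libraries it was below Kcnc1 except in cbx superficial replicate 1, where Kcnc1 had 13.1 RPKM and Kcnc4 13.2 RPKM. The summed Kv3 level was 30.2 ± 1.41 RPKM in cbx superficial, 32.9 ± 1.45 RPKM in saline superficial, 59.5 ± 3.26 RPKM in cbx deep and 57.7 ± 0.38 RPKM in saline deep libraries. These shares are descriptions without a test.

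**Figure D2:**
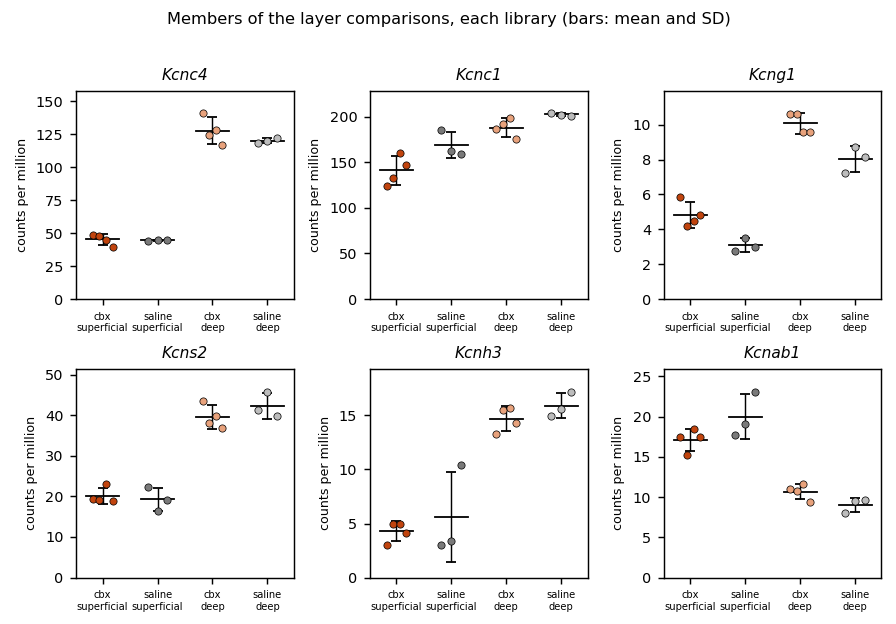
CPM of 6 members (panels) in each library of the 4 groups, with the group mean (line) and SD (bars); the y axis starts at 0. Superficial and deep libraries do not overlap within a treatment in any panel, and saline superficial replicate 3 stands apart for Kcnh3 at 10.4 CPM.

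The 3 silent subunits were lower in superficial libraries after cbx, and Kcng1 and Kcns2 also after saline. Kcns2 had 19.4, 19.2, 23.1 and 18.8 CPM in cbx superficial libraries, 22.2, 16.5 and 19.1 CPM in saline superficial libraries, 43.5, 38.1, 39.7 and 36.9 CPM in cbx deep libraries and 41.2, 45.8 and 39.7 CPM in saline deep libraries. Kcns2 was thus about as much lower after each treatment, at -0.97 ± 0.093 after cbx (adjusted p = 1.2e-07) and -1.13 ± 0.11 after saline (adjusted p = 2.36e-07). Kcng1 had 5.86, 4.18, 4.45 and 4.83 CPM in cbx superficial libraries, 2.77, 3.53 and 3 CPM in saline superficial libraries, 10.6, 10.6, 9.56 and 9.6 CPM in cbx deep libraries and 7.22, 8.7 and 8.18 CPM in saline deep libraries. Kcng1 differed by -1.06 ± 0.12 after cbx and -1.37 ± 0.15 after saline, at a superficial level 0.479 and 0.387 times the deep one. Kcnv1 had 7.81, 8.88, 7.2 and 7.49 CPM in cbx superficial libraries, 7.4, 7.48 and 6.08 CPM in saline superficial libraries, 10.6, 10.4, 10.6 and 10.2 CPM in cbx deep libraries and 9.35, 7.89 and 7.16 CPM in saline deep libraries. Kcnv1 passed after cbx (-0.42 ± 0.11), and its saline libraries overlapped between layers (-0.22 ± 0.13, adjusted p = 0.288).

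Of the ether-à-go-go type genes, 4 of 5 were lower in superficial libraries after cbx and 2 of 5 after saline. Kcnh3 had 3.05, 4.98, 4.97 and 4.09 CPM in cbx superficial libraries, 3.03, 3.38 and 10.4 CPM in saline superficial libraries, 13.3, 15.5, 15.7 and 14.3 CPM in cbx deep libraries and 14.9, 15.6 and 17.2 CPM in saline deep libraries. Kcnh3, a channel gene of forebrain neurons, differed by -1.78 ± 0.32 after cbx (adjusted p = 0.00105) and -1.5 ± 0.36 after saline (adjusted p = 0.0119). Saline superficial replicate 3 was the exception: it also held the highest superficial sum of 5 cortex and hippocampus markers, 12.4 CPM against 3.69 to 5.27 CPM in the other 6 superficial libraries. In deep libraries that sum was 9.09 to 10.7 CPM after cbx and 7.44 to 8.43 CPM after saline. The part of these markers in the Kcnh3 difference was not tested, and without that library the saline difference was -2.31 ± 0.18 (adjusted p = 3.86e-08). The saline call was lost in a fit of the saline groups alone (adjusted p = 0.132) and without saline pool 1 and cbx pool 4 (0.111).

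Kcnh1 had 9.12, 11.3, 11.8 and 9.99 CPM in cbx superficial libraries, 9.6, 7.04 and 9.77 CPM in saline superficial libraries, 21.3, 17.7, 20.8 and 17.1 CPM in cbx deep libraries and 16.2, 13.7 and 13.9 CPM in saline deep libraries. Kcnh1, an ether-à-go-go channel gene of the brain, did not overlap between layers and differed by -0.87 ± 0.12 after cbx and -0.73 ± 0.14 after saline. Kcnh2 had 54.8, 60.8, 56.7 and 56.4 CPM in cbx superficial libraries, 71, 72.1 and 73.5 CPM in saline superficial libraries, 73, 68.6, 62.7 and 61 CPM in cbx deep libraries and 75.4, 80.2 and 72.4 CPM in saline deep libraries. Kcnh2, the ERG channel gene also known from cardiac repolarisation, was lower after cbx by a small amount (-0.21 ± 0.064) and did not pass after saline (-0.074 ± 0.074). The cbx call of Kcnh2 was lost without cbx deep replicate 1 (adjusted p = 0.0592). Kcnh7 had 15, 21.4, 26 and 23.9 CPM in cbx superficial libraries, 28.9, 27.9 and 27.2 CPM in saline superficial libraries, 26.9, 31, 34.6 and 26.7 CPM in cbx deep libraries and 27.9, 25.4 and 22.2 CPM in saline deep libraries. Kcnh7, a neuronal ERG gene, differed by -0.46 ± 0.13 after cbx, with cbx superficial replicate 1 lowest, and by 0.16 ± 0.15 after saline (adjusted p = 0.565). Without cbx superficial replicate 1 the cbx difference was -0.32 ± 0.098 (adjusted p = 0.0154). Kcnh5 ranged from 1.1 to 7.58 CPM over the 14 libraries and passed in neither treatment (-0.57 ± 0.38 after cbx, -0.61 ± 0.44 after saline). Without a low-count filter it passed after both (adjusted p = 0.00407 after cbx and 0.0143 after saline).

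Kv1 genes encode low-threshold channels, found on axons and near synapses in the case of Kcna1, Kcna2 and Kcna4. In superficial libraries 5 of 6 were lower after cbx and 2 of 6 (Kcna5 and Kcna6) after saline. Kcna1 had 1.71, 3.78, 5.59 and 5.21 CPM in cbx superficial libraries, 8.28, 6.09 and 6.06 CPM in saline superficial libraries, 7.08, 8.35, 9.59 and 7.75 CPM in cbx deep libraries and 10, 8.82 and 7.27 CPM in saline deep libraries. The lowest Kcna1 value was that of cbx superficial replicate 1, and the layer difference after cbx was -0.99 ± 0.26 with it and -0.75 ± 0.16 without it, against -0.35 ± 0.29 after saline (adjusted p = 0.471). Kcna2 had 81.4, 97, 104 and 107 CPM in cbx superficial libraries, 130, 120 and 101 CPM in saline superficial libraries, 141, 136, 153 and 128 CPM in cbx deep libraries and 144, 133 and 130 CPM in saline deep libraries. Kcna2, a main axonal subunit of this subfamily, differed by -0.52 ± 0.087 after cbx, while the saline difference of -0.22 ± 0.1 passed only with the pool as a block (adjusted p = 0.0489), in a fit of the saline groups alone (0.037) or with trends in length and GC content removed (0.00355). Kcna4 had 10.5, 10.8, 10.1 and 10.3 CPM in cbx superficial libraries, 11.7, 10.3 and 11 CPM in saline superficial libraries, 15.3, 14.7, 14.5 and 15 CPM in cbx deep libraries and 10, 11 and 11 CPM in saline deep libraries. Kcna4, an A-type channel gene, differed by -0.51 ± 0.082 after cbx and by 0.038 ± 0.095 after saline, and its cbx deep libraries were above all 10 others.

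Kcna5 had 3.6, 3.5, 4.1 and 3.81 CPM in cbx superficial libraries, 3.57, 3.59 and 5.61 CPM in saline superficial libraries, 10.3, 8.98, 7.2 and 8.69 CPM in cbx deep libraries and 6.61, 6.28 and 10.1 CPM in saline deep libraries. Kcna5, also known from heart and vascular muscle, had no overlap between layers and differed by -1.23 ± 0.17 after cbx and -0.85 ± 0.2 after saline, the second being lost without saline deep replicate 3 (adjusted p = 0.0516). Kcna6 had 67.1, 68.4, 68.9 and 66.8 CPM in cbx superficial libraries, 64.8, 58 and 57.9 CPM in saline superficial libraries, 100, 80, 79.6 and 81.5 CPM in cbx deep libraries and 76, 72 and 76.5 CPM in saline deep libraries. Kcna6 was lower by a similar step after cbx (-0.33 ± 0.071) and saline (-0.31 ± 0.082), the second being lost without saline superficial replicate 2 (adjusted p = 0.0584). Its reads are uncertain, since 39.6% of its exon bases overlap a gene on the other strand (Gm26673) and the counting is not stated to use strand, while no single overlap in 8 other members took more than 5.13%. Kcna3, also prominent in immune cells, ranged from 8.36 to 25.8 CPM and passed in neither treatment (-0.15 ± 0.25 after cbx, 0.34 ± 0.29 after saline). In a fit of the saline groups alone it was higher in superficial libraries (0.31 ± 0.1, adjusted p = 0.0367).

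Kv4 genes encode the A-type channels of dendrites, and all 3 were lower in superficial libraries after cbx. Kcnd2 had 172, 181, 192 and 168 CPM in cbx superficial libraries, 215, 188 and 197 CPM in saline superficial libraries, 214, 206, 221 and 224 CPM in cbx deep libraries and 260, 241 and 229 CPM in saline deep libraries. Kcnd2 was lower by the same step after cbx (-0.28 ± 0.063) and saline (-0.28 ± 0.073), and the saline call was lost without saline deep replicate 1 (adjusted p = 0.0611) or saline superficial replicate 2 (0.0646). Kcnd3 had 132, 163, 196 and 158 CPM in cbx superficial libraries, 178, 153 and 156 CPM in saline superficial libraries, 210, 210, 247 and 241 CPM in cbx deep libraries and 302, 245 and 235 CPM in saline deep libraries. Kcnd3 differed more, by -0.48 ± 0.11 after cbx and -0.69 ± 0.12 after saline, with no overlap of layers. Kcnd1 had 13.9, 13.1, 11.7 and 10.8 CPM in cbx superficial libraries, 13.9, 13.2 and 13.4 CPM in saline superficial libraries, 15.3, 15.3, 16.2 and 13.9 CPM in cbx deep libraries and 15.4, 15.7 and 17.7 CPM in saline deep libraries. Kcnd1 passed after cbx (-0.3 ± 0.092), with overlapping layers, but not without cbx deep replicate 3 (adjusted p = 0.0561) or cbx superficial replicate 4 (0.0651). After saline its layers did not overlap and it did not pass (-0.27 ± 0.11, adjusted p = 0.0938), but it passed with the pool as a random effect in limma (0.0475), in DESeq2 (0.0426) and in a fit of the saline groups alone (0.0377).

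Their partners of the KChIP group were divided. Kcnip3 had 59, 57, 62.6 and 60 CPM in cbx superficial libraries, 65.6, 61.8 and 57.6 CPM in saline superficial libraries, 75.3, 73.9, 80.7 and 87.8 CPM in cbx deep libraries and 96.5, 93 and 89.2 CPM in saline deep libraries. Kcnip3, also known as the transcriptional repressor DREAM, was lower, at -0.41 ± 0.065 after cbx and -0.59 ± 0.075 after saline. Kcnip1 had 74.9, 75.1, 64.3 and 67.1 CPM in cbx superficial libraries, 69.9, 72.5 and 80.3 CPM in saline superficial libraries, 86.7, 86.4, 77.2 and 83.8 CPM in cbx deep libraries and 84.1, 86.6 and 91.2 CPM in saline deep libraries. Kcnip1 was lower by smaller steps (-0.25 ± 0.067 and -0.23 ± 0.077), and its saline call was lost with any saline library other than superficial replicate 3 left out, with an adjusted p of up to 0.179. Kcnip2 (23.8 to 32.8 CPM) and Kcnip4 (30.4 to 36.6 CPM) passed in neither treatment, with log2 differences between 0.02 and 0.16. Kcnip2 and Kcnip4 encode partners of the same Kv4 channels.

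The Kv beta genes went in different directions. Kcnab1 had 17.4, 15.2, 18.4 and 17.4 CPM in cbx superficial libraries, 17.7, 19.1 and 23.1 CPM in saline superficial libraries, 11, 10.7, 11.6 and 9.34 CPM in cbx deep libraries and 8.01, 9.46 and 9.59 CPM in saline deep libraries. Every superficial library was above every deep library of the same treatment, and the log2 difference was 0.68 ± 0.1 after cbx (adjusted p = 3.69e-05) and 1.15 ± 0.12 after saline (adjusted p = 8.63e-07). Kcnab1 encodes a subunit that confers fast inactivation on Kv1 channels. Kcnab2 had 70.2, 71.8, 75 and 68.8 CPM in cbx superficial libraries, 78.1, 82.6 and 87.6 CPM in saline superficial libraries, 108, 94.6, 98.4 and 91.2 CPM in cbx deep libraries and 102, 105 and 106 CPM in saline deep libraries. Kcnab2, the highest of the 3 per exon length in each group, promotes surface and axonal targeting of Kv1 channels and was lower, at -0.46 ± 0.061 after cbx and -0.34 ± 0.07 after saline. Kcnab3 ranged from 9.34 to 15.7 CPM and passed in neither (-0.2 ± 0.11 and 0.19 ± 0.13). With trends in length and GC content removed it passed after cbx (-0.31 ± 0.11, adjusted p = 0.0251). Per exon length, Kcnab1 made up 10.5% ± 0.951 of the summed Kv beta level in cbx superficial and 10.7% ± 0.86 in saline superficial libraries. In cbx deep libraries it made up 5.25% ± 0.357 and in saline deep libraries 4.42% ± 0.386 (SD, n = 4 for cbx and 3 for saline).

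The Kv2 gene and the Kv7 genes had layer calls after 1 treatment at most. Kcnb2 had 22.6, 25.9, 31.9 and 27.5 CPM in cbx superficial libraries, 31.7, 24.6 and 26.9 CPM in saline superficial libraries, 31, 33.3, 42.8 and 32.4 CPM in cbx deep libraries and 43.7, 35.2 and 31.6 CPM in saline deep libraries. Kcnb2, the partner channel of the silent subunits, passed after cbx with overlapping layers (-0.37 ± 0.13, adjusted p = 0.0347) but not without cbx deep replicate 3 (adjusted p = 0.129) or without cbx superficial replicate 1, 2 or 4 (0.103, 0.0809 and 0.0606). With trends in length and GC content removed it was at -0.19 ± 0.083 and did not pass (0.0817). After saline it was at -0.41 ± 0.15 (adjusted p = 0.0634), and at -0.4 ± 0.079 with the pool as a block (adjusted p = 0.000643). Kcnq5 had 20.1, 25.4, 28.7 and 25.6 CPM in cbx superficial libraries, 36.2, 34.1 and 38 CPM in saline superficial libraries, 26, 29.7, 28.7 and 23.5 CPM in cbx deep libraries and 29.4, 27.7 and 26.2 CPM in saline deep libraries. Kcnq5, which contributes to the M current that restrains repeated firing, was higher in saline superficial than in saline deep libraries (0.38 ± 0.11, adjusted p = 0.02) and did not pass after cbx (-0.11 ± 0.096). The saline call was lost without saline deep replicate 2 or 3 or saline superficial replicate 1 or 3 (adjusted p up to 0.0865). Kcnq3, its Kv7 partner, ranged from 108 to 178 CPM and passed in neither treatment (-0.014 ± 0.12 after cbx, 0.16 ± 0.14 after saline).

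Levels of different genes were compared per exon length only. Kcnd2 was highest in each group, at 34.6 ± 2.09 RPKM in cbx superficial, 38.8 ± 2.62 RPKM in saline superficial, 42 ± 1.52 RPKM in cbx deep and 47.2 ± 3.05 RPKM in saline deep libraries (mean ± SD, n = 4 for cbx and 3 for saline). In deep libraries Kcnc4 came next, at 34.8 ± 2.79 RPKM after cbx and 32.7 ± 0.584 RPKM after saline. In superficial libraries 3 genes shared that place within their SDs: Kcnd3 at 16.9 ± 2.74 RPKM, Kcnip3 at 16.8 ± 0.658 RPKM and Kcnc1 at 14.9 ± 1.66 RPKM in cbx superficial libraries. In saline superficial libraries the same genes had 16.9 ± 1.41, 17.4 ± 1.13 and 17.8 ± 1.47 RPKM. The lowest levels were 0.742 ± 0.159 RPKM for Kcnh3 in cbx superficial libraries and 0.688 ± 0.0869 RPKM for Kcng1 in saline superficial libraries. By summed level the Kv4 genes led with 53.9 ± 4.54 RPKM in cbx superficial, 58.3 ± 4.08 RPKM in saline superficial, 68.5 ± 3.43 RPKM in cbx deep and 77.5 ± 6.56 RPKM in saline deep libraries. The exon model of Kcna3 is the shortest of the members, which raises its value on this scale.

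**Figure D3:**
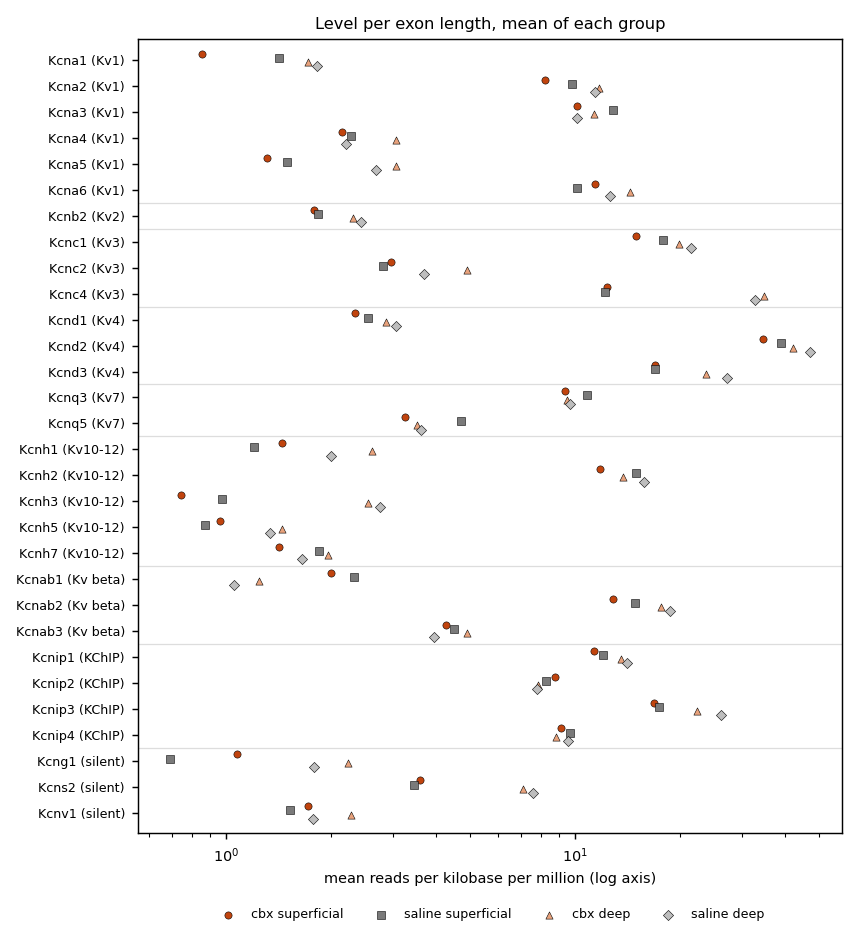
Mean RPKM of each group (log x axis, TMM-scaled reads per kilobase of annotated exon) for the 30 members by subfamily (rows), with 1 marker per group. Kcnd2 lies farthest right, and for Kcnc4 the superficial groups lie at 12.3 and 12.2 RPKM after cbx and saline, and the deep groups at 34.8 and 32.7 RPKM.

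Layer differences varied between neighbouring genes. On chromosome 3 of build GRCm38.p6 the upstream windows of Kcna3, Kcna2 and Kcnc4 start at 107035912, 107101317 and 107458899, and their log2 layer differences after cbx were -0.15 ± 0.25, -0.52 ± 0.087 and -1.5 ± 0.07.

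Genes outside the family that belong to Kv complexes or to other potassium channels also had calls between the layers, to be read beside the shares of all tested genes called (14.1% lower and 18.1% higher after cbx, 8.73% lower and 9.67% higher after saline). These lists, too, were chosen with earlier results of these data known. Of 24 partner and anchoring genes, 2 were higher and 18 lower in superficial libraries after cbx, and 0 higher and 13 lower after saline. The median log2 difference of this list was -0.34 after cbx and -0.23 after saline. They included Lgi3 (-1.5 ± 0.087 after cbx and -1.21 ± 0.1 after saline), a secreted ligand of the Adam22 and Adam23 family, and the axonal adhesion gene Cntn1 (-0.75 ± 0.077 and -0.63 ± 0.089). Of 28 other potassium and HCN channel genes, 2 were higher and 16 lower after cbx, and 2 higher and 8 lower after saline. Kcnj3, a subunit of G protein-gated inward rectifiers, was lower, at -1.06 ± 0.099 after cbx and -0.9 ± 0.12 after saline. Of 13 tested of 18 other Kv subunit genes, 3 were lower after cbx and 1 (Kcns1, -0.48 ± 0.13) after saline.

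Between cbx and saline, 3 members were called in superficial and 2 in deep libraries. In superficial libraries 1 of 30 was higher and 2 were lower after cbx, where 2.68% of all tested genes were higher, 1.65% lower and 4.33% either. In deep libraries 2 of 30 were higher and 0 lower, where 1.06% of all tested genes were higher, 0.777% lower and 1.83% either. The median log2 difference of the members, cbx minus saline, was -0.085 in superficial and -0.0096 in deep libraries, beside 0.0094 and 0.0069 for all genes tested. By unadjusted p, 10 of 30 members were under 0.05 in superficial libraries, 8 of them below 0, beside 20.6% of all genes. In deep libraries 11 were under 0.05, 3 of them below 0, beside 15.3% of all genes. In simulated data the fit found 4% of 1.2-fold changes in each layer, so a missing call does not show a lack of change.

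**Figure D4:**
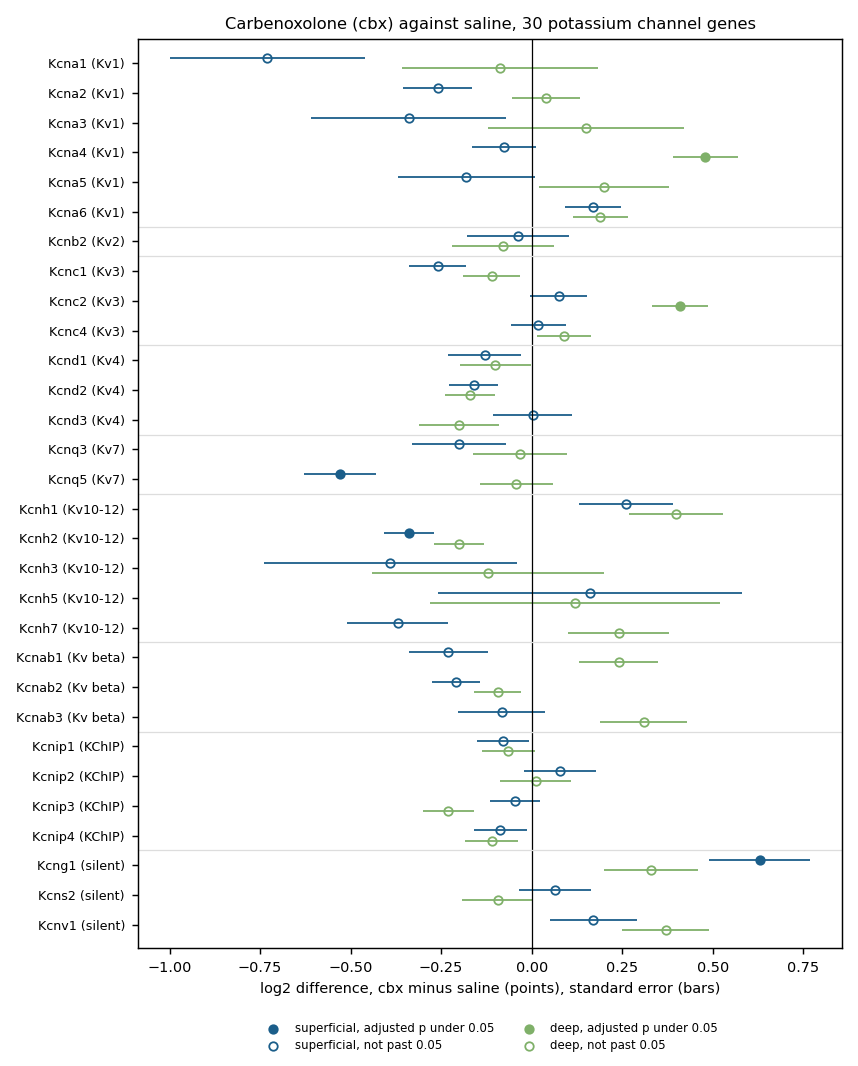
Log2 difference of cbx minus saline libraries (x axis) for the 30 members by subfamily (rows), in superficial libraries (blue) and deep libraries (green). Points are fitted differences, bars are 1 standard error, and filled points passed an adjusted p of 0.05. The 5 filled points are Kcnq5 and Kcnh2 (lower) and Kcng1 (higher) in superficial libraries, and Kcna4 and Kcnc2 (higher) in deep libraries.

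Kcnq5, the Kv7 gene, had the widest called fall in superficial libraries, with 20.1, 25.4, 28.7 and 25.6 CPM after cbx and 36.2, 34.1 and 38 CPM after saline. The groups did not overlap, and the log2 difference was -0.53 ± 0.1 (adjusted p = 0.00852). Kcnh2 fell to 54.8, 60.8, 56.7 and 56.4 CPM in cbx superficial libraries, against 71, 72.1 and 73.5 CPM in saline superficial libraries. These groups did not overlap either, at -0.34 ± 0.069 (adjusted p = 0.0118). Kcng1 rose to 5.86, 4.18, 4.45 and 4.83 CPM in cbx superficial libraries, against 2.77, 3.53 and 3 CPM in saline superficial libraries, a log2 difference of 0.63 ± 0.14 (adjusted p = 0.0184). In deep libraries the same 3 genes were at -0.042 ± 0.1 (Kcnq5), -0.2 ± 0.069 (Kcnh2) and 0.33 ± 0.13 (Kcng1) and did not pass.

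Of the superficial calls, Kcnq5 passed with each library left out (adjusted p 0.00489 to 0.0473). Kcnh2 was lost without saline superficial replicate 2 or 3 (adjusted p = 0.0581 and 0.0546), and Kcng1 without saline superficial replicate 1 or 3 (0.0851 and 0.0745). All 3 were lost in a fit of the superficial groups alone (adjusted p = 0.0503, 0.0502 and 0.111 for Kcnq5, Kcnh2 and Kcng1) and without saline pool 1 and cbx pool 4 (0.0722, 0.0906 and 0.176). Markers of several cell types also differed between cbx and saline superficial libraries. Of 10 microglia genes 6 were higher, with a summed level of 323 to 339 CPM after cbx and 247 to 268 CPM after saline. Of 10 meningeal genes 5 were higher, and 1 of 5 red blood cell genes, whose sum was 238 to 388 CPM after cbx and 149 to 230 CPM after saline. Of 3 inhibitory neuron markers 1 was lower, with sums of 724 to 813 CPM after cbx and 835 to 863 CPM after saline, and of 8 astrocyte markers 1 was lower, with sums of 2390 to 2790 CPM after cbx and 2440 to 2960 CPM after saline. Among layer markers, 1 of 2 deep colliculus genes was higher and 1 of 4 superficial colliculus genes lower after cbx. Sums of the deep markers were 30.4 to 41.6 CPM after cbx and 23.5 to 31.1 CPM after saline. Sums of the superficial markers were 394 to 422 CPM after cbx and 413 to 486 CPM after saline. The part of these cells and of the layer markers in the 3 member differences was not tested.

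In superficial libraries 2 of 30 members were higher and 5 lower with no overlap between groups, where 8.96% and 8.29% of all tested genes did so. Kcna1 had no overlap between groups and a log2 difference of -0.73 ± 0.27 (adjusted p = 0.146), and -0.48 ± 0.17 without cbx superficial replicate 1 (adjusted p = 0.134). Kcnh7 was at -0.37 ± 0.14 (adjusted p = 0.144), and -0.24 ± 0.1 without that library. Without a low-count filter both passed (adjusted p = 0.000391 for Kcna1 and 0.0125 for Kcnh7). Kcnc1 (-0.26 ± 0.079) and Kcnab2 (-0.21 ± 0.066) missed the threshold in edgeR (adjusted p = 0.0644 and 0.0706) and passed in DESeq2 (0.0346 and 0.0426).

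In deep libraries the 2 called members both rose after cbx. Kcna4 had 15.3, 14.7, 14.5 and 15 CPM in cbx deep and 10, 11 and 11 CPM in saline deep libraries, a log2 difference of 0.48 ± 0.089 (adjusted p = 0.00997). Kcnc2 had 33.5, 39, 33.1 and 34.2 CPM in cbx deep and 26.6, 26.1 and 26 CPM in saline deep libraries, a log2 difference of 0.41 ± 0.078 (adjusted p = 0.0105). In both genes every cbx library was above every saline library, and the spread within groups was small. In superficial libraries the same genes were at -0.076 ± 0.089 (Kcna4) and 0.075 ± 0.079 (Kcnc2). Kcna4 was lost without any 1 of the 3 saline deep libraries (adjusted p = 0.0705, 0.052 and 0.0535), Kcnc2 without saline deep replicate 2 or 3 (0.0685 and 0.0628), and both without saline pool 1 and cbx pool 4 (0.183 for Kcna4 and 0.136 for Kcnc2). Of 8 astrocyte markers 1 was lower and 7 were below 0 in this comparison, with sums of 1370 to 1640 CPM in cbx deep and 1660 to 1970 CPM in saline deep libraries. No microglia or meningeal marker was called, although the meningeal sums did not overlap (40.5 to 54.9 CPM in cbx deep and 62.3 to 71.2 CPM in saline deep libraries). The cortex and hippocampus sum was 9.09 to 10.7 CPM in cbx deep and 7.44 to 8.43 CPM in saline deep libraries. The part of these markers in the differences was not tested.

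**Figure D5:**
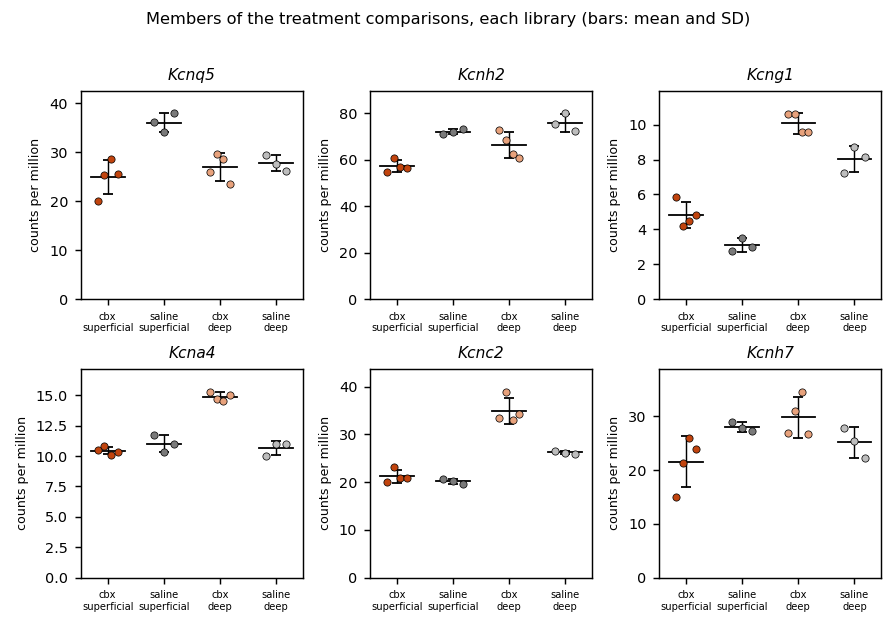
CPM of 6 members (panels) in each library of the 4 groups, with the group mean (line) and SD (bars); the y axis starts at 0. Kcnq5 and Kcnh2 are lower and Kcng1 is higher in cbx superficial than in saline superficial libraries, and Kcna4 and Kcnc2 are higher in cbx deep than in saline deep libraries.

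In deep libraries 7 of 30 members were higher and 3 lower with no overlap between groups, where 7.96% and 8.05% of all tested genes did so. Kcnh1 (0.4 ± 0.13, adjusted p = 0.111), Kcnv1 (0.37 ± 0.12) and Kcnab3 (0.31 ± 0.12) were among those higher without passing, and Kcnip3 (-0.23 ± 0.07, adjusted p = 0.102) among those lower. Kcnh1 passed in a fit of the deep groups alone (adjusted p = 0.0409) and with trends in length and GC content removed (0.0478).

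Some of the other channel genes were called by treatment, beside 4.33% of all tested genes in superficial and 1.83% in deep libraries. In superficial libraries Dpp10 (-0.24 ± 0.066), which encodes a partner of Kv4 channels, was the 1 call of 24 partner genes, and Kcns3 (-0.92 ± 0.25) the 1 call of 13 other Kv subunits tested. Of 28 other potassium and HCN channel genes, 2 were higher (Kcnk2, 0.29 ± 0.064, and Kcnj12, 0.58 ± 0.14) and 3 lower, among them Kcnj10 (-0.46 ± 0.093), the inward rectifier of astrocytes. In deep libraries Cntnap1 (0.61 ± 0.13), Kcnj9 (0.49 ± 0.094) and Kcnk10 (0.46 ± 0.1) were higher, and 0 of these lists' genes were lower.

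Whether the effect of cbx differed between layers was tested as an interaction, the superficial minus the deep difference. No member passed in edgeR or limma-voom, and 0% of all tested genes were called in edgeR. The median over the members was -0.14 (0.0019 over all genes), and 21 of 30 were below 0. By unadjusted p, 7 members were under 0.05 and all 7 were below 0, beside 8.36% of all genes. These were Kcna4 (-0.55 ± 0.13, adjusted p = 0.23), Kcnq5 (-0.49 ± 0.15), Kcnc2 (-0.34 ± 0.11), Kcnh7 (-0.62 ± 0.2), Kcnab1 (-0.47 ± 0.16), Kcnab3 (-0.39 ± 0.17) and Kcna2 (-0.3 ± 0.13). Kcna4 passed in DESeq2 (adjusted p = 0.02), and Kcnh7 with the pool as a block (-0.64 ± 0.13, adjusted p = 0.0477) or without a low-count filter (0.00738). The calls made in 1 layer or after 1 treatment above are therefore not shown to be particular to it. The 2 layer comparisons share no library with each other, nor do the 2 treatment comparisons, but each layer comparison shares libraries with both treatment comparisons. The 2 treatment comparisons do share pools of brains, and within each layer comparison the 2 layers came from the same pools. The main fit, which gave the layer calls above, did not model this sharing. Fits with the pool as a block or as a random effect did so for the layer comparisons.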

How the data were processed

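Poly-A RNA of 14 libraries was deposited as raw counts of reads per Ensembl gene, 1 file per library. The submitters' processing notes name STAR 2.7.9d, Subread 2.0.1 with featureCounts, FastQC 0.11.9 and SAMtools 1.14, and builds GRCm39 and mm10 without a role. For annotation and strand, settings were not given in the sources used here. Members and lists were chosen with earlier results of these data known.

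The 30 members were matched by Ensembl ID. Counts of 20330 genes that passed edgeR's filter were TMM-scaled and fitted with edgeR 4.0.16 (R 4.3.3), 1 mean per group (10 residual degrees of freedom), by the quasi-likelihood test, with Benjamini-Hochberg adjustment over all tested genes. Differences are log2 with SE. Levels per length used exon lengths of GENCODE M21. Members past the threshold in any comparison are given library by library. Alternatives were RLE scaling, other low-count filters, DESeq2 1.42.0, limma-voom (limma 3.58.1), fewer groups or libraries, length and GC trends removed, and replicate blocks.

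Same-numbered libraries of 1 treatment deviated together across layers in 7 of 7 pairs (r 0.182 to 0.394), so the number marks a shared pool of brains. Numbers did not pair the treatments (6 pairs, r -0.276 to -0.0167). Tested on simulated data, the fit found 68% and 62% of 1.5-fold changes for cbx in superficial and deep libraries, 68% and 57% for the layers after cbx and saline, and 41% for the interaction. Of 1.2-fold changes it found 4% for cbx in each layer, 6% and 4% for the layers, and 4% for the interaction. The simulation changed 50 or 100 genes per fold in a single group, left all other genes equal and drew libraries as independent. In the deposited data 32.2% of tested genes were called between layers after cbx and 18.4% after saline. The rates for the layers therefore need not hold there.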

Additional observations from a re-analysis of the deposited data

Results flagged for a closer look

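In 3 of 60 sets of 4 cbx libraries, 1 for each member and layer, a single library lay far from the other 3 by Dixon's test, where chance gives about 1 in 20. Kcna6 was highest in cbx deep replicate 1, at 100 CPM. Kcnip4 was lowest in cbx deep replicate 2, at 30.4 CPM. Kcns2 was highest in cbx superficial replicate 3, at 23.1 CPM. Groups of 3 saline libraries were not tested.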

How the results depend on the processing

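Of 150 member differences, 44 passed the threshold and 0 of these changed sign in an alternative, while 28 passed in every alternative run. With 1 library left out at a time, 1 of 3 superficial cbx calls, 0 of 2 deep cbx calls, 20 of 23 layer calls after cbx and 10 of 16 after saline always passed. Of 91 differences past the threshold in no setting, 29 had the other sign in some setting.

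For cbx in superficial libraries, members higher and lower numbered 1 and 2 (0 to 1 and 1 to 3 with a library left out). Lower members numbered 5 without a low-count filter, 4 with a 1 CPM filter and 4 in DESeq2. Both counts were 0 in a fit of the superficial groups alone and 0 without saline pool 1 and cbx pool 4. All genes numbered 545 higher and 335 lower (84 to 493 and 56 to 414). They numbered 844 and 615 without a filter, 538 and 551 at 1 CPM, 849 and 655 in DESeq2, 90 and 52 in the groups alone, 69 and 22 without those pools, and 553 and 619 with length and GC trends removed. With the replicate number as a block they numbered 314 and 166.

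For cbx in deep libraries, 2 members were higher (0 to 2, and 0 without those pools), and the median of -0.0096 (-0.032 to 0.068) became 0.1 without them. All genes numbered 215 higher and 158 lower (18 to 178 and 24 to 102). They numbered 395 and 396 in DESeq2, 329 and 282 in the groups alone, 7 and 7 without those pools, 384 and 451 with trends removed and 112 and 79 with the number as a block, and 245 were lower without a filter.

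For the layers after cbx, 22 members were lower (20 to 22), with a median of -0.42 (-0.47 to -0.36), and all genes numbered 2971 higher and 4164 lower with trends removed, against 3671 and 2873. After saline, members higher and lower numbered 2 and 14 (1 to 2 and 10 to 14), and 1 and 8 without those pools, with a median of -0.27 (-0.31 to -0.26) that was -0.34 with trends removed. All genes numbered 1965 higher and 1774 lower (1461 to 1792 and 1216 to 1614), 1139 and 994 without those pools, and 1833 and 2757 with trends removed. With the pool as a replicate block, Kcna2 (-0.22, adjusted p = 0.0489 in edgeR) and Kcnb2 (-0.4) passed after saline, as did Kcnb2 and Kcnd1 (-0.27, adjusted p = 0.0475 in limma) with the pool as a random effect.

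For the interaction, 0 members passed, but 1 was lower without a filter, 1 in DESeq2 and 1 with the pool as a block. All genes numbered 0 (0 to 14 higher), 186 higher and 70 lower without a filter, 47 and 13 in DESeq2, 55 and 6 with the pool as a fixed block, and 5 higher with it as a random effect. The median of -0.14 (-0.18 to -0.069) was -0.077 with trends removed. The causes were not tested, except that leaving out pools or groups leaves fewer libraries.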
